A study of Homo sapiens with 12 samples.

Results

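The genes described here are 38 of the 17710 genes measured on each array: 21 genes of the amino acid response driven by the transcription factor ATF4 and 17 genes for cytosolic aminoacyl-tRNA synthetases. They were chosen by name, as a fixed list of Ensembl gene IDs paired with symbols, among them ENSG00000128272_at (ATF4), ENSG00000070669_at (ASNS), ENSG00000135069_at (PSAT1), ENSG00000103257_at (SLC7A5) and ENSG00000134684_at (YARS). All 38 had a value on all 12 arrays.

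MM.1S is an established human multiple myeloma cell line, a plasma cell tumour line that responds to glucocorticoids. Its RNA was hybridised to Clariom S arrays from 3 independent experiments, with 4 groups of 3 arrays. Control cells were untreated, PIM cells received PIM447 at 100 nM for 24 h, Pd cells received pomalidomide at 200 nM with dexamethasone at 5 nM for 15 h, and PIM-Pd cells received all of these agents at the same doses for 10 h. Viability of the treated cells was 74 to 81%, and values are log2 expression values normalised between arrays.

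PIM447 inhibits the PIM family of kinases, pomalidomide redirects the cereblon ubiquitin ligase to the lymphoid factors IKZF1 and IKZF3, and dexamethasone is a ligand of the glucocorticoid receptor. Because each treatment had its own exposure, treatment and time cannot be told apart in any comparison between groups. The arrays measure bulk RNA, in which fewer cells making an RNA and less RNA in each cell cannot be told apart.

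When amino acids run short, uncharged tRNA activates the kinase GCN2, which phosphorylates the initiation factor eIF2 and slows general translation while the mRNA of ATF4 is translated more. ATF4 then binds C/EBP-ATF response elements, with C/EBP family partners, in genes that make, import and charge amino acids onto tRNA, and some of its targets, such as TRIB3, feed back on it. Antibody-secreting plasma cells and the myelomas that arise from them carry a heavy load of protein synthesis, and because much of the control of ATF4 is translational, its mRNA is not a measure of its protein.

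The promoter windows of these genes are shown because ATF4, for which 21 of the members were chosen, has a known response element. All 38 symbols matched a RefSeq gene, 17 of them under a newer symbol (AARS is now AARS1, and so on), and 31 had at least 1 promoter window of 300 bases, from 250 before to 50 after an annotated start (build GRCh38.p14). PSPH, SHMT2, SLC7A11, PYCR1, LARS, YARS and DARS had none. The core of the C/EBP-ATF response element, TGATGNAA, searched on both strands, was in the windows of 11 of the 31 members (35.5%), against 1217 of 27305 genes with a window (4.46%). These 27305 are all genes with a RefSeq window and were not limited to the 17710 genes on the arrays. Counted by window, the core was in 11 of 47 windows of the members (23.4%) and in 1270 of 35116 RefSeq windows (3.62%). The 11 were 4 of 17 members of the ATF4 response (ASNS, CHAC1, SLC3A2 and ATF3) and 7 of 14 synthetases (AARS, GARS, NARS, MARS, IARS, TARS and CARS). A match describes the letters in the window and is not evidence that a protein binds there.

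In the next 9 stretches the capitals mark this core, written as it reads on the gene's strand, so that TTGCATCA and TTTCATCA are the core on the opposite strand. The position is that of the first capital relative to the annotated start, with the first transcribed base as 0.
ASNS, chr7:97872458-97872487, minus strand, position -68: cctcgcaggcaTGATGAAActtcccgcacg
CHAC1, chr15:40953251-40953280, plus strand, position -209: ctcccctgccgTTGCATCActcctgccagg
AARS, chr16:70289675-70289704, minus strand, position -187: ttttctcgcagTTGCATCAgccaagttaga
GARS, chr7:30594834-30594863, plus strand, position -33: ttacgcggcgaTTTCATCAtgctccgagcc
MARS, chr12:57488053-57488082, plus strand, position -4: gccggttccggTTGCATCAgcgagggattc
IARS, chr9:92293692-92293721, minus strand, position -13: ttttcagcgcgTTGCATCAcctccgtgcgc
NARS, chr18:57621804-57621833, minus strand, position 14: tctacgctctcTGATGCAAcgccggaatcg
TARS, chr5:33440956-33440985, plus strand, position 2: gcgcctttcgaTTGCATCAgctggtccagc
CARS, chr11:3057407-3057436, minus strand, position -2: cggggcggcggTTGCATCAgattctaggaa
Each of these lines is 30 bases of RefSeq sequence. In MARS, TARS and CARS the core lay within a few bases of the start, and CHAC1, AARS, MARS, IARS, TARS and CARS carried the same 8 letters, TTGCATCA, whose opposite strand is the TGATGCAA of NARS.

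The E-box CACGTG, the letters bound by MYC and other basic helix-loop-helix factors, was in the windows of 4 of the 31 members (12.9%), against 2396 of 27305 genes (8.77%), and in 5 of 47 windows of the members (10.6%), against 2548 of 35116 windows (7.26%). Those 4 were ATF4 itself, SLC7A5, ALDH18A1 and IARS, and the capitals mark the E-box in each.
ATF4, chr22:39520465-39520494, plus strand, position -82: ggaggagacggtCACGTGgtcgcggcggaa
SLC7A5, chr16:87869620-87869649, minus strand, position -130: ggccggacgacgCACGTGctccgagctggg
ALDH18A1, chr10:95656830-95656859, minus strand, position -136: gggctggcccgcCACGTGgagcgctggctt
IARS, chr9:92293866-92293895, minus strand, position -186: tggttcgttttcCACGTGgaggcgcaaaac
The E-box of ATF4 lies in the windows of 2 annotated starts, at -82 and -85. Of the 4 genes, only IARS held both motifs.

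Some arrays differed in ways the treatments do not define. PIM 1, PIM 2 and PIM-Pd 1 stood apart on the second principal component of all genes (15.0% of the variance), at 14, 15.0 and 26.2, while the other 9 arrays lay between -11.3 and 0.246. The values of these arrays were also spread less widely, with an SD over all genes of 1.91 on each, against 1.93 to 1.95 on the others. Control 1 was the highest of the 3 control arrays for 11 of 21 ATF4 response members (52.4%) and 11 of 17 synthetases (64.7%), against 32.7% of all genes, so results are given without these arrays where they change. When PIM 1, PIM 2 and PIM-Pd 1 were left out together, a choice made after seeing the data, every member called after Pd or after PIM-Pd against control stayed called, and a few were gained. The cell type label could be checked only in part, since 3 of 8 plasma cell markers and 1 of 4 T cell markers could be named, all through the study's lists of changed genes, and levels of different genes on an array are not comparable. Control arrays gave IRF4 between 9.94 and 10.24, CD38 between 8.39 and 8.55 and SLAMF7 between 9.79 and 10.13, and the T cell gene CD3E between 4.33 and 4.88. CD3E differed from control by -0.47 after Pd (adjusted p 0.166) and by -0.57 after PIM-Pd (adjusted p 0.0573; 0.0482 with the experiment as a block), the same sign as most members.

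Called genes are those with an adjusted p under 0.05 from limma over all 17710 genes. After Pd, 8 of 21 ATF4 response members and 1 of 17 synthetases were lower than in control, where 344 of all genes were called lower (1.94%) and 616 higher (3.48%). After PIM-Pd, 9 of 21 and 6 of 17 were lower, where 889 of all genes were called lower (5.02%) and 782 higher (4.42%). After PIM no gene on the arrays was called by limma in either direction (0% lower and 0% higher); at an unadjusted p under 0.05 it gave 520 lower and 578 higher genes, among them 7 lower and 1 higher ATF4 response members and 7 lower synthetases. Leaving out 1 array moved some of these counts. After Pd, 4 ATF4 response members were called without Control 1, Pd 2 or Pd 3 and 5 without Control 2 or Pd 1, and the synthetase count was 0 without any of these 5 arrays and 2 without PIM 2 or PIM-Pd 3. All genes called after Pd, 960 in both directions, were 522 without Control 1, 608 without Control 3, 520 without Pd 1 and 497 without Pd 3. After PIM-Pd the synthetase count was 3 without Control 1 and 2 without PIM-Pd 3, and all genes called, 1671, were 1096 without Control 3. No member was called higher in any comparison, and 2 were higher at an unadjusted p under 0.05 after Pd (PSPH and DARS) and none after PIM-Pd, where 1604 and 1777 of all genes were.

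**Figure D1:**
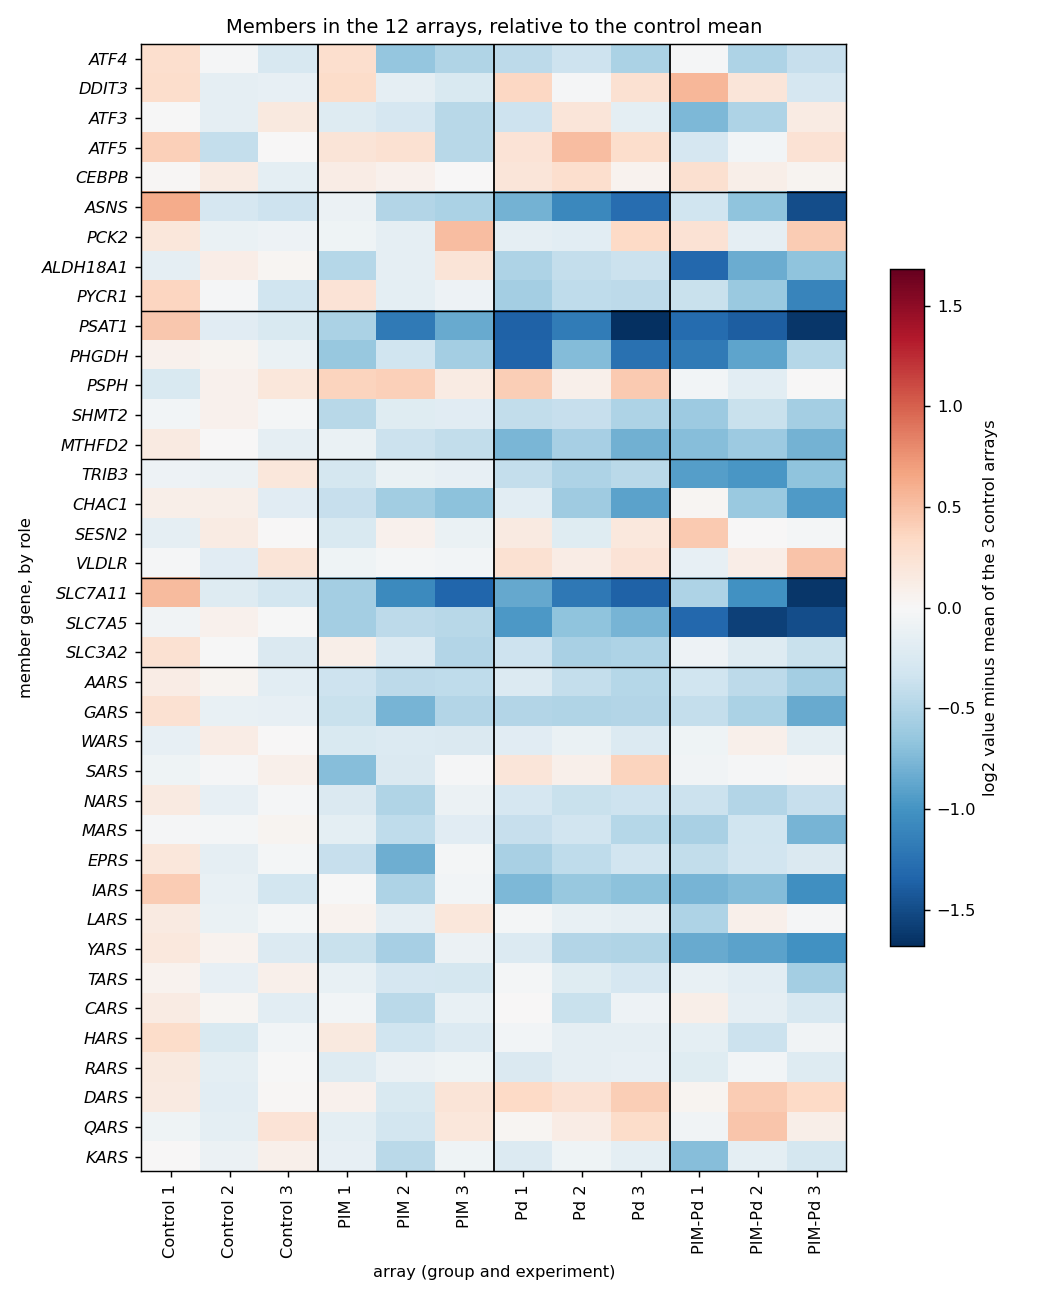
Log2 value of each of the 38 members (top to bottom, grouped by role) in each of the 12 arrays (columns), minus the mean of the 3 control arrays; blue is lower and red is higher. PSAT1, SLC7A11 and SLC7A5 are blue in every treated array, while ATF5, DDIT3 and DARS are not.

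The median difference from control over the ATF4 response members was -0.21 after PIM, -0.44 after Pd and -0.52 after PIM-Pd, and over the synthetases -0.23, -0.18 and -0.29. Over all genes these medians were 0.01, -0.01 and 0.01. The medians after PIM moved in opposite directions without the arrays that stood apart. PIM 3 alone gave -0.41 for the ATF4 response members, further below control, and -0.09 for the synthetases, nearer to control. Without the same arrays PIM-Pd gave -0.47 and -0.23, and the median over all genes was 0.00 in both comparisons. The 3 comparisons share the control arrays, and their values are therefore only set side by side. By sign alone, 17 of 21 and 15 of 17 members were below control after PIM, 14 and 14 after Pd, and 16 and 15 after PIM-Pd. Of all 17710 genes, 8389 were below control after PIM, 9235 after Pd and 8549 after PIM-Pd.

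**Figure D2:**
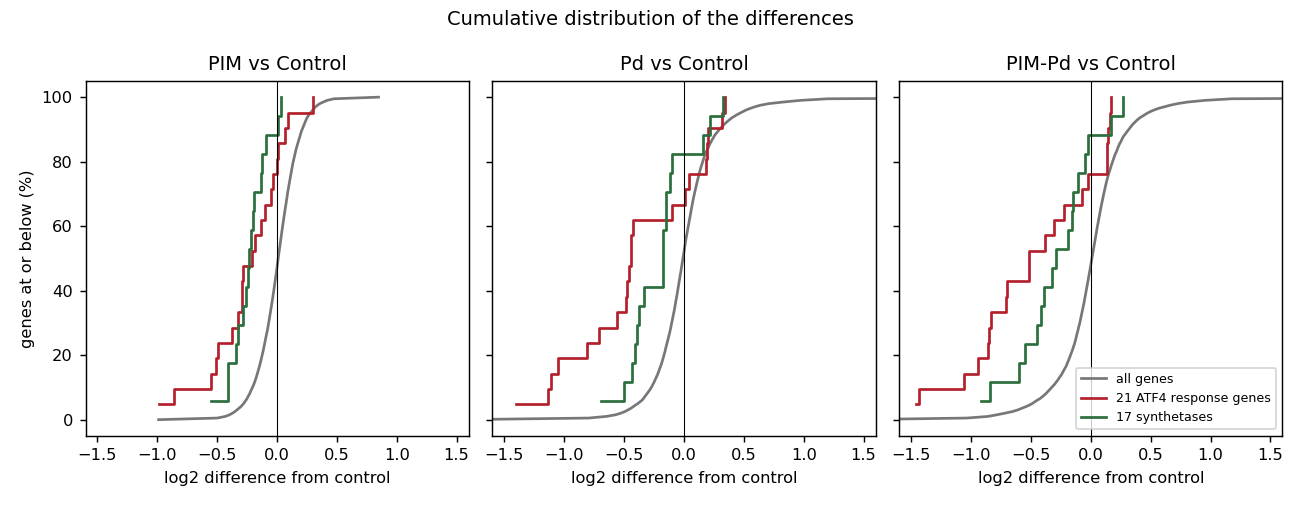
Share of genes (%) at or below each log2 difference from control, for all 17710 genes (grey), the 21 ATF4 response genes (red) and the 17 synthetases (green), in the 3 comparisons with control. The curves of both sets lie to the left of the curve of all genes over most of their range, with medians of -0.52 and -0.29 against 0.01 after PIM-Pd.

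Among the transcription factors, ATF4 and the 4 factors of its network (DDIT3, ATF3, ATF5 and CEBPB) gave 0 calls by limma in every comparison, and also 0 at an unadjusted p under 0.05. ATF4 measured 9.11, 8.81 and 8.56 in the control arrays, 9.10, 8.18 and 8.32 after PIM, 8.38, 8.47 and 8.30 after Pd, and 8.81, 8.31 and 8.44 after PIM-Pd. All 3 Pd arrays lay below all 3 control arrays, while the PIM and PIM-Pd arrays overlapped with control because of PIM 1 and PIM-Pd 1. The log2 differences from control were -0.29 (95% interval -0.74 to 0.16), -0.44 (-0.89 to 0.01) and -0.31 (-0.76 to 0.15), with adjusted p of 0.874, 0.311 and 0.498. ATF4 was below control in 3 of 3 experiments after each treatment, without passing the test. In experiment 1 PIM and control were nearly equal, at 9.10 and 9.11. Of all 17710 genes, 2619 were below control in 3 of 3 experiments after PIM, 3651 after Pd and 3552 after PIM-Pd. DDIT3 (CHOP), a proapoptotic partner of C/EBP factors, differed from control by -0.04, 0.19 and 0.16, and the stress-induced factor ATF3 by -0.32, -0.10 and -0.38. Without PIM-Pd 3, ATF3 was called lower after PIM-Pd (-0.64, adjusted p 0.0318, against 0.312 with all arrays). ATF5, whose mRNA is translated under stress much as that of ATF4 is, differed by 0.00, 0.35 and -0.03, and CEBPB, a dimer partner of ATF4, by 0.07, 0.18 and 0.14.

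With all arrays, the enzymes of asparagine and proline synthesis were called lower after Pd (ASNS) or after PIM-Pd (ALDH18A1 and PYCR1), and none after both. ASNS makes asparagine from aspartate and glutamine, and its window above carries the response element core at -68. Its values were 8.57, 7.67 and 7.61 in control, 7.85, 7.46 and 7.42 after PIM, 7.16, 6.87 and 6.68 after Pd, and 7.61, 7.27 and 6.47 after PIM-Pd. Every Pd array lay below every control array, whereas PIM-Pd 1 reached the level of Control 3. ASNS was 2.07-fold lower after Pd (log2 difference -1.05, 95% interval -1.64 to -0.46, adjusted p 0.0402) and was not called after PIM-Pd (-0.83, -1.43 to -0.24, adjusted p 0.0786; 0.00483 with the experiment as a block). It was called there without PIM-Pd 1 (-1.08, adjusted p 0.0324) and without all 3 arrays that stood apart (adjusted p 0.0354). Control 1 was the highest ASNS value, and the Pd call was lost without Control 1 or Control 2 or any 1 of the Pd arrays (adjusted p 0.0513 to 0.187). Those fits had no block for the experiment. With all arrays and the block, the adjusted p of ASNS after Pd was 0.00171.

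ALDH18A1 catalyses the first steps from glutamate towards proline, and PYCR1 the last. ALDH18A1 measured 7.38, 7.63 and 7.56 in control, 7.05, 7.38 and 7.74 after PIM, 7.001, 7.13 and 7.17 after Pd, and 6.20, 6.70 and 6.85 after PIM-Pd. The PIM-Pd arrays were below the Pd arrays and these below the control arrays, and the PIM arrays overlapped with control. ALDH18A1 was 1.92-fold lower after PIM-Pd (-0.94, 95% interval -1.32 to -0.56, adjusted p 0.00374) and was not called after Pd (-0.43, adjusted p 0.227; 0.0378 without the 3 arrays that stood apart) or PIM (-0.14, adjusted p 0.935). PYCR1 was 1.63-fold lower after PIM-Pd (-0.70, adjusted p 0.0304), a call that was lost without Control 1, Control 2, PIM-Pd 2 or PIM-Pd 3 (adjusted p 0.0563 to 0.146), and was -0.48 from control after Pd (adjusted p 0.195). PCK2, the mitochondrial enzyme that makes phosphoenolpyruvate, differed by 0.10, 0.01 and 0.17 after PIM, Pd and PIM-Pd, with adjusted p of at least 0.743.

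Of the serine and folate enzymes, 4 of 5 were lower both after Pd and after PIM-Pd. PSAT1, the aminotransferase of serine synthesis, measured 9.59, 8.95 and 8.88 in control, 8.61, 7.95 and 8.30 after PIM, 7.79, 7.96 and 7.46 after Pd, and 7.85, 7.76 and 7.50 after PIM-Pd. All 9 treated arrays lay below all 3 control arrays. PSAT1 was 2.65-fold lower after Pd (-1.41, 95% interval -1.84 to -0.97, adjusted p 0.000698) and 2.71-fold lower after PIM-Pd (-1.44, -1.87 to -1.01, adjusted p 0.000433). After PIM the difference was -0.86 (-1.29 to -0.43), which did not pass over all genes (adjusted p 0.666).

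PHGDH commits the glycolytic intermediate 3-phosphoglycerate to serine. Its values were 6.31, 6.28 and 6.12 in control, 5.60, 5.90 and 5.67 after PIM, 4.89, 5.50 and 4.98 after Pd, and 5.05, 5.35 and 5.75 after PIM-Pd. Here too no treated array reached the control arrays. PHGDH was 2.16-fold lower after Pd (-1.11, 95% interval -1.50 to -0.73, adjusted p 0.00191) and 1.81-fold lower after PIM-Pd (-0.85, -1.24 to -0.47, adjusted p 0.00728), and after PIM it differed by -0.51 (adjusted p 0.699). SHMT2 and MTHFD2, the mitochondrial enzymes that turn serine into glycine and carry its carbon on folate, were lower by smaller amounts. MTHFD2 was 1.64-fold lower after Pd (-0.71, adjusted p 0.00324) and 1.63-fold lower after PIM-Pd (-0.71, adjusted p 0.00215). SHMT2 was 1.36-fold lower after Pd (-0.44, adjusted p 0.0342) and 1.43-fold lower after PIM-Pd (-0.52, adjusted p 0.0091), and its Pd call was lost without any 1 of the control or Pd arrays (adjusted p 0.066 to 0.14). PSPH, the phosphatase that completes serine, differed the other way after Pd (0.31, adjusted p 0.266) and PIM (0.30, adjusted p 0.795) without a call, and by -0.08 after PIM-Pd.

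The transporters are SLC7A5 (LAT1), which imports large neutral amino acids such as leucine, SLC7A11 (xCT), which imports cystine, and SLC3A2 (4F2hc), the heavy chain that both need at the membrane. SLC7A5 measured 8.43, 8.56 and 8.49 in control, 7.93, 8.05 and 8.02 after PIM, 7.53, 7.81 and 7.71 after Pd, and 7.17, 6.93 and 7.01 after PIM-Pd. The 4 groups did not overlap, with control highest, then PIM, then Pd, then PIM-Pd. SLC7A5 was 1.75-fold lower after Pd (-0.81, 95% interval -1.05 to -0.57, adjusted p 0.000494) and 2.75-fold lower after PIM-Pd (-1.46, -1.70 to -1.22, adjusted p 3.1e-06), and it was -0.49 from control after PIM (-0.73 to -0.26, adjusted p 0.666).

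SLC7A11 measured 6.05, 5.30 and 5.22 in control, 4.95, 4.45 and 4.19 after PIM, 4.66, 4.32 and 4.17 after Pd, and 5.00, 4.51 and 3.88 after PIM-Pd. In each of the 4 groups the array of experiment 1 was the highest and that of experiment 3 the lowest, and no treated array reached the control arrays. SLC7A11 was 2.20-fold lower after Pd (-1.14, 95% interval -1.72 to -0.55, adjusted p 0.0242) and 2.08-fold lower after PIM-Pd (-1.06, -1.64 to -0.47, adjusted p 0.024). Its difference after PIM, -0.99 (-1.58 to -0.40, adjusted p 0.666), was the lowest of any gene on the arrays in that comparison. The Pd call was lost without Control 1, Pd 2 or Pd 3 (adjusted p 0.0725 to 0.128). The PIM-Pd call was lost without Control 1, PIM-Pd 2 or PIM-Pd 3 (adjusted p 0.0538 to 0.119). Those fits had no block for the experiment. With all arrays and the block, the adjusted p of SLC7A11 was 0.000209 after Pd, 0.000267 after PIM-Pd and 0.0719 after PIM. SLC3A2 differed by -0.21, -0.47 and -0.23 after PIM, Pd and PIM-Pd, and only its difference after Pd was called with the experiment as a block (adjusted p 0.0218, against 0.11 without it).

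**Figure D3:**
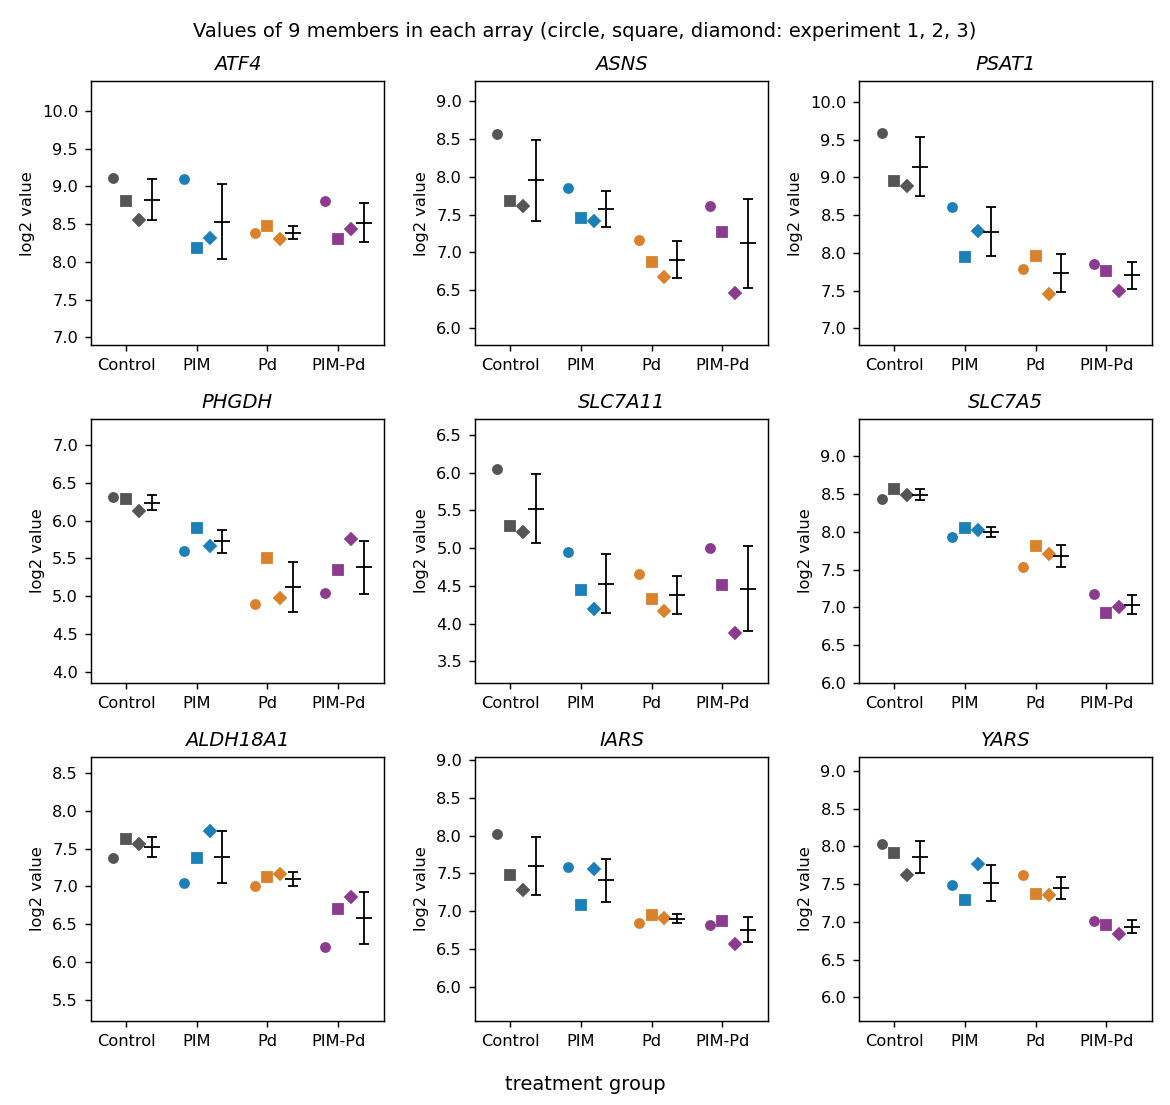
Log2 values of 9 members in each array by treatment group, with circles, squares and diamonds for experiments 1, 2 and 3 and bars for the mean and SD of the 3 arrays; each panel spans the same range of log2 units. The groups of SLC7A5 are separate from one another, with control arrays between 8.43 and 8.56 and PIM-Pd arrays between 6.93 and 7.17. For ATF4 the PIM and PIM-Pd arrays overlap with control, and the Pd arrays lie below it.

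Of the feedback and stress effectors, TRIB3, a pseudokinase that binds ATF4 and restrains it, was 1.37-fold lower after Pd (-0.46, 95% interval -0.71 to -0.20, adjusted p 0.0379) and 1.81-fold lower after PIM-Pd (-0.86, -1.11 to -0.60, adjusted p 0.000397). Its group means were 5.62 ± 0.16 (SD, n = 3) in control, 5.44 ± 0.10 after PIM, 5.17 ± 0.06 after Pd and 4.76 ± 0.16 after PIM-Pd. The call after Pd was lost without any 1 of the control or Pd arrays (adjusted p 0.0547 to 0.17). CHAC1, which degrades glutathione, was below control by similar amounts after each treatment, at -0.55, -0.56 and -0.52, and was not called after Pd or PIM-Pd with all arrays, but was with the experiment as a block (adjusted p 0.0319 in both, against 0.193 and 0.191 without it). After PIM-Pd it was called also without PIM-Pd 1 (-0.79, adjusted p 0.0221) and without all 3 arrays that stood apart (adjusted p 0.0252). SESN2, a leucine sensor upstream of mTORC1, differed by -0.10, 0.04 and 0.14, and the lipoprotein receptor VLDLR by -0.05, 0.20 and 0.15.

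Of the synthetases, each of which charges tRNA with its own amino acid, 6 of 17 were called lower after PIM-Pd and 1 after Pd (3 with the experiment as a block), while the direct comparison of PIM-Pd with Pd called 0 of 17 by limma (1 at an unadjusted p under 0.05). YARS (tyrosine) and IARS (isoleucine), the synthetases with the largest differences, are given by array although this choice was made after their values were seen. YARS measured 8.04, 7.91 and 7.63 in control, 7.48, 7.30 and 7.77 after PIM, 7.62, 7.37 and 7.36 after Pd, and 7.01, 6.97 and 6.84 after PIM-Pd. The PIM-Pd arrays were the lowest 3 of the 12, and PIM 3 lay within the control range. YARS was 1.89-fold lower after PIM-Pd (-0.92, 95% interval -1.22 to -0.62, adjusted p 0.000872) and was not called after Pd (-0.41, adjusted p 0.127) or PIM (-0.34, adjusted p 0.775).

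IARS, whose window above holds both motifs, measured 8.03, 7.48 and 7.29 in control, 7.58, 7.08 and 7.56 after PIM, 6.84, 6.96 and 6.91 after Pd, and 6.82, 6.87 and 6.57 after PIM-Pd. All Pd and PIM-Pd arrays lay below the control arrays, and the PIM arrays overlapped with them. IARS was 1.62-fold lower after Pd (-0.70, 95% interval -1.08 to -0.32, adjusted p 0.0342) and 1.79-fold lower after PIM-Pd (-0.84, -1.22 to -0.46, adjusted p 0.00726). The Pd call was lost without Control 1 or Control 2 or any 1 of the Pd arrays (adjusted p 0.0582 to 0.158).

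After PIM-Pd, GARS (glycine) was 1.51-fold lower (-0.60, adjusted p 0.0179), MARS (methionine) 1.47-fold (-0.55, adjusted p 0.0104), AARS (alanine) 1.37-fold (-0.45, adjusted p 0.0238) and NARS (asparagine) 1.33-fold (-0.42, adjusted p 0.0437). In each of these 4 the PIM-Pd arrays lay below the control arrays in 3 of 3 experiments, as in 3552 of all 17710 genes. Without Control 1 the calls of GARS, AARS and NARS were lost (adjusted p 0.0932, 0.106 and 0.18), and without PIM-Pd 3 those of all 4. The 3 synthetases called without Control 1 were MARS, IARS and YARS, and the 2 without PIM-Pd 3 were IARS and YARS. AARS was also lost without Control 2 or PIM-Pd 2, and NARS in 9 of the 12 leave-one-out fits (adjusted p up to 0.18), among them those without Control 3, PIM 1, PIM-Pd 1, PIM-Pd 2 or any 1 of the Pd arrays. After Pd these 4 were at -0.50, -0.39, -0.37 and -0.34, without a call; with the experiment as a block GARS (adjusted p 0.0347) and AARS (adjusted p 0.043) were called, so that 3 synthetases passed in place of 1. Without PIM 1, PIM 2 and PIM-Pd 1 the count after Pd was also 3, with GARS (adjusted p 0.0382) and EPRS (-0.43, adjusted p 0.0449) beside IARS. GARS was called after Pd also without PIM 2 (adjusted p 0.0484) or PIM-Pd 3 (0.0488).

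The other 11 synthetases were not called in any comparison of all 12 arrays. After PIM-Pd they ranged from -0.39 for KARS (lysine) to 0.27 for DARS (aspartate), with EPRS (glutamate and proline) at -0.33, TARS (threonine) at -0.29, HARS (histidine) at -0.19, RARS (arginine) at -0.16, LARS (leucine) at -0.15, CARS (cysteine) at -0.11, WARS (tryptophan) at -0.05, SARS (serine) at -0.02 and QARS (glutamine) at 0.17. DARS was the synthetase with the highest difference after Pd as well (0.33, 95% interval 0.02 to 0.64, adjusted p 0.251), where its 3 arrays lay above all control arrays.

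Set against the promoter windows, 5 of the 7 synthetases with the response element core were called lower after PIM-Pd, and 0 of the 7 whose windows lack it, where 5.02% of all genes were called lower after PIM-Pd and 1.94% after Pd. The share called among all genes with the core was not analysed here. After PIM-Pd the 7 without the core were not called by limma, and KARS alone among them had an unadjusted p under 0.05 (0.0157). After Pd, EPRS alone among them did (0.0195). The 7 were WARS, SARS, EPRS, HARS, RARS, QARS and KARS. After Pd these counts were 1 of 7 and 0 of 7. The 5 of 7 became 1 without PIM-Pd 3 (IARS), 2 without Control 1 (MARS and IARS) and 3 without PIM-Pd 2, and stayed at 0 of 7 for windows that lack the core. The 1 of 7 after Pd became 0 without Control 1, Control 2 or any 1 of the Pd arrays, 2 without PIM 2 or PIM-Pd 3, and 3 with the experiment as a block, and without the 3 arrays that stood apart the counts were 2 of 7 and 1 of 7. Among the ATF4 response members 0 of 4 with the core and 6 of 13 without it were called lower after PIM-Pd, and 1 of 4 and 5 of 13 after Pd. This order depended on the fit. With the experiment as a block the counts were 2 of 4 and 6 of 13 after PIM-Pd and 3 of 4 and 5 of 13 after Pd. After PIM-Pd the members with the core came to 2 of 4 also without PIM-Pd 1 and without all 3 arrays that stood apart, and to 1 of 4 without PIM-Pd 3, and after Pd to 0 of 4 without Control 1, Control 2 or any 1 of the Pd arrays. Of the 4 members with an E-box, SLC7A5, ALDH18A1 and IARS were called lower after PIM-Pd, against 8 of the 27 members whose windows lack it (5 without Control 1 or without PIM-Pd 3). After Pd these counts were 2 of 4 and 5 of 27. They became 1 of 4 and 3 of 27 without Control 1, Control 2 or any 1 of the Pd arrays, 2 of 4 and 9 of 27 with the experiment as a block, and 3 of 4 and 7 of 27 without the 3 arrays that stood apart. These are descriptions of few genes, chosen with results known, and no test was made of them.

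**Figure D4:**
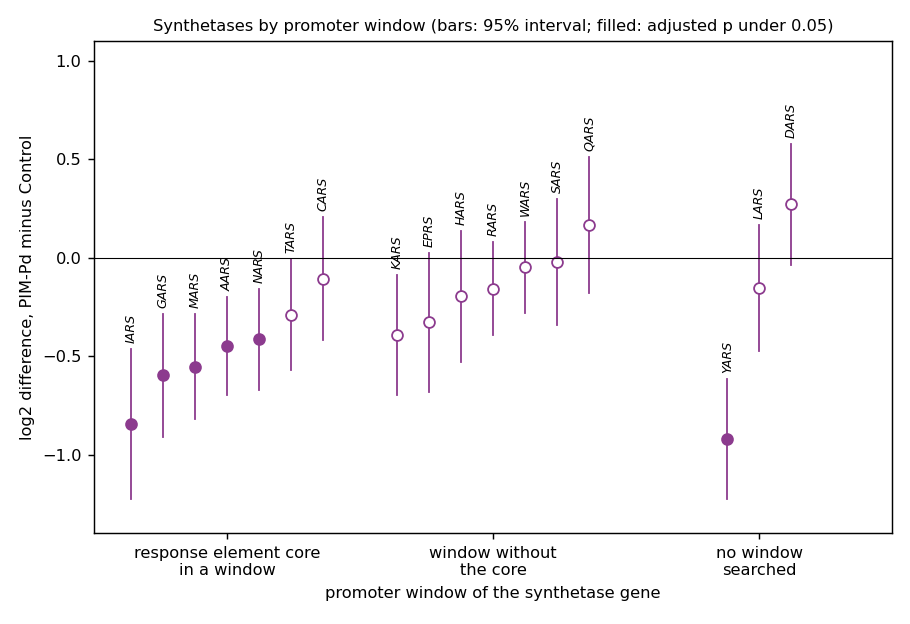
Log2 difference between PIM-Pd and control for the 17 synthetases, with bars for the 95% interval and filled points for an adjusted p under 0.05, by whether the response element core was in a promoter window. Filled points are 5 of 7 genes with the core (IARS, GARS, MARS, AARS and NARS), 0 of 7 without it, and YARS among those with no window searched; without PIM-Pd 3 the 5 became 1.

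After PIM447 alone most members lay below control, and limma called none of them. Every PIM array lay below every control array for 8 of 21 ATF4 response members and 4 of 17 synthetases, where 4.99% of all genes did so. PIM was below control in each of the 3 experiments for 13 of 21 and 10 of 17 members, where 14.8% of all genes were. The smallest adjusted p of any member was 0.666. With the experiment as a block it was 0.0719, for SLC7A11, and limma again called 0 of all genes. GARS (-0.55, 95% interval -0.86 to -0.24) and AARS (-0.41, -0.66 to -0.16) had the lowest differences among synthetases without overlap between the groups, and PIM 3 alone lay -0.49 and -0.43 from the control mean. For ATF4 that array lay at -0.51, against -0.29 with all arrays, and for YARS at -0.09, against -0.34. PIM 1 and PIM 2 are among the arrays that stood apart, and without them and PIM-Pd 1 limma again called 0 of all genes, from a fit in which the single PIM array is assumed to vary like the other groups.

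**Figure D5:**
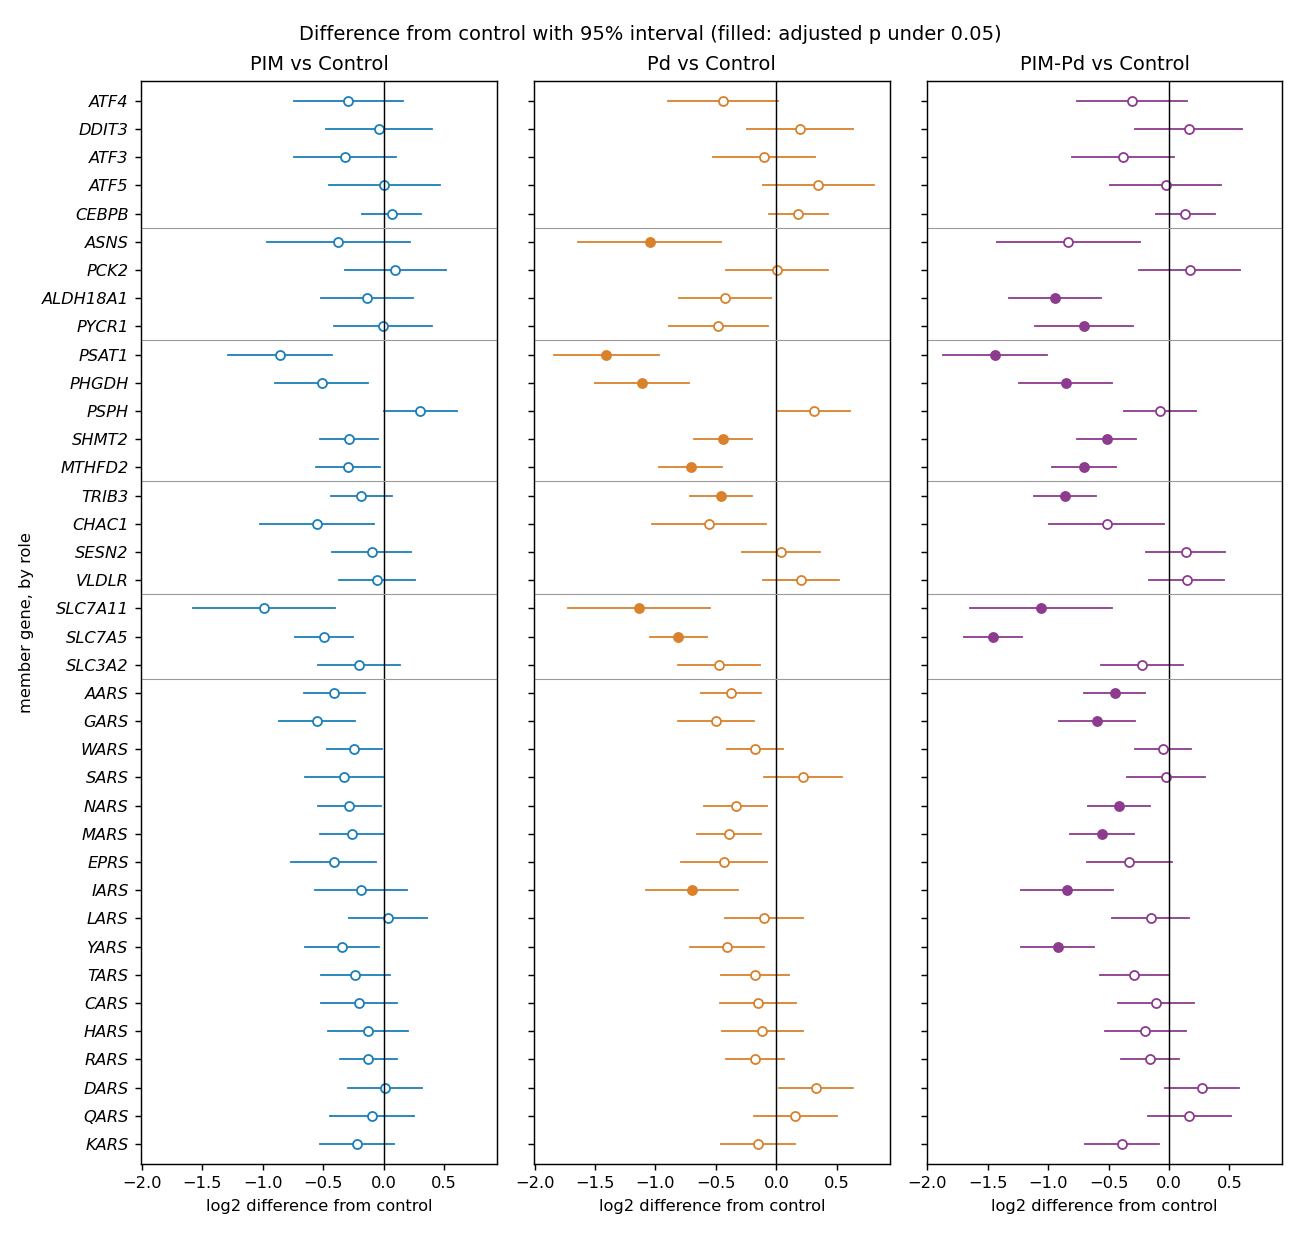
Log2 difference from control (points) with its 95% interval (bars) for each of the 38 members after PIM, Pd and PIM-Pd; filled points have an adjusted p under 0.05. There are no filled points after PIM, 9 after Pd and 15 after PIM-Pd, and all of them are below 0.

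The comparison of PIM-Pd with Pd asks what PIM447 adds, although the exposure was also shorter (10 h against 15 h), and it shares its arrays with the other comparisons. SLC7A5 was the 1 member called, 1.57-fold lower with PIM447 (-0.65, 95% interval -0.88 to -0.41, adjusted p 0.0479), and the 17 synthetases gave 0 calls by limma, where 13 of all genes were lower (0.0734%) and 1 higher (0.00565%). At an unadjusted p under 0.05, 4 of 21 ATF4 response members and 1 of 17 synthetases were lower, where 826 of all 17710 genes were. These were SLC7A5, ALDH18A1 (-0.52, adjusted p 0.426), TRIB3 (-0.40, adjusted p 0.326), PSPH (-0.39, adjusted p 0.448) and YARS (-0.51, adjusted p 0.279), and in each of them every PIM-Pd array lay below every Pd array, as in 1380 of all genes. The SLC7A5 call sat close to the threshold: its adjusted p was 0.0584 with the experiment as a block, between 0.0509 and 0.22 in the 12 fits that each left out 1 array, whichever it was, and 0.0881 without the 3 arrays that stood apart. The 14 genes called in all came to between 2 and 8 without any 1 array other than PIM 2 (14) or PIM-Pd 2 (15). PSAT1, MTHFD2 and SLC7A11 differed by -0.03, 0.00 and 0.08.

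The comparison of PIM-Pd with PIM asks what pomalidomide and dexamethasone add, here with 10 h against 24 h. Lower in PIM-Pd were 4 of 21 ATF4 response members and 2 of 17 synthetases, where 480 of all genes were lower (2.71%) and 523 higher (2.95%). SLC7A5 was 1.95-fold lower (-0.96, 95% interval -1.20 to -0.73, adjusted p 0.000137), ALDH18A1 1.75-fold (-0.81, adjusted p 0.0148), PYCR1 1.62-fold (-0.70, adjusted p 0.0451) and TRIB3 1.60-fold (-0.67, adjusted p 0.00351). Of the synthetases, IARS was 1.57-fold (-0.65, adjusted p 0.0451) and YARS 1.49-fold lower (-0.58, adjusted p 0.0265). Without PIM 1, PIM 2 and PIM-Pd 1, the arrays that stood apart, 2 of these 6 remained called, SLC7A5 (adjusted p 0.0105) and ALDH18A1 (0.0177), and 228 of all genes. TRIB3, PYCR1, IARS and YARS then differed by -0.68, -0.79, -0.84 and -0.86, no smaller than with all arrays, with adjusted p of 0.105, 0.189, 0.155 and 0.0536. In that fit PIM is the single array PIM 3, assumed to vary like the other groups. The SLC7A5 and TRIB3 calls held in each of the 12 fits without 1 array. The ALDH18A1 call was lost without PIM 3 (adjusted p 0.0568) or PIM-Pd 1 (0.0566). The YARS call was lost without PIM 1, PIM 3, PIM-Pd 2 or PIM-Pd 3 (0.0604 to 0.0984). Those of PYCR1 and IARS were lost in 9 of the 12 each (0.0599 to 0.184 and 0.0565 to 0.161). PYCR1 stayed called only without Control 1, Control 3 or PIM-Pd 1, and IARS only without Control 1, Control 3 or PIM 2. The ATF4 response count was 2 without PIM 3. The synthetase count was 0 without PIM 1, PIM 3, PIM-Pd 2 or PIM-Pd 3 and 1 without Control 2, PIM-Pd 1 or any 1 of the Pd arrays, and all genes called, 1003, were 648 without PIM-Pd 3. With the experiment as a block PSAT1 (-0.58, adjusted p 0.049) and MTHFD2 (-0.41, adjusted p 0.0473) were called too, against 0.124 and 0.0698 without it.

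Other genes of the pathway could be named only where the study's own lists of changed genes pair an ID with a symbol. This was so for 26 of 111 entries in the lists drawn up for related genes and cell markers. Because those genes were picked on these same arrays, their directions are not independent evidence and no counts over the lists are given. EIF2AK4, which encodes GCN2, the kinase upstream of ATF4, was higher after Pd and after PIM-Pd. It measured 6.13, 6.44 and 6.46 in control, 6.75, 6.36 and 6.73 after PIM, 7.66, 7.46 and 7.49 after Pd, and 8.12, 7.68 and 7.92 after PIM-Pd. The Pd and PIM-Pd arrays were all above the control arrays, by 1.20 (2.29-fold, adjusted p 0.000202) and 1.56 (2.96-fold, adjusted p 2.04e-05), opposite in sign to the members called.

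Among other ATF4 targets, DDIT4, an inhibitor of mTORC1 that glucocorticoids also induce, was 16.2-fold higher after Pd (4.02, adjusted p 5.02e-11) and 15.6-fold after PIM-Pd (3.96, adjusted p 6.17e-11), and differed by 0.02 after PIM. The transaminase GPT2 (-0.91 and -1.11), the mitochondrial folate enzyme MTHFD1L (-0.96 and -1.02) and the tRNA exporter XPOT (-0.54 and -0.56) were lower after Pd and PIM-Pd, with adjusted p between 0.00201 and 0.0238. KLHL24 was higher after both (0.64, adjusted p 0.0317, and 0.96, adjusted p 0.00161), and the growth factor VEGFA was lower after PIM-Pd (-0.69, adjusted p 0.0269). After PIM, KLHL24 differed by 0.67 and GPT2 by -0.76, without overlap with control but also without a call (adjusted p 0.666 and 0.667). MTHFD1L, XPOT and VEGFA differed after PIM by -0.15, -0.21 and -0.32, with overlap and without a call. CHMP4C was above control after Pd (0.55, adjusted p 0.123) and PIM-Pd (0.56, adjusted p 0.0846), and was called higher in both with the experiment as a block (adjusted p 0.0332 and 0.0204). Of other amino acid transporters, SLC1A5, which imports glutamine, was lower after both (-0.54, adjusted p 0.00742, and -0.84, adjusted p 0.000207), and SLC7A1, which imports arginine and lysine, after PIM-Pd (-0.76, adjusted p 0.00864). The mitochondrial glutamate carrier SLC25A22 (-0.68, adjusted p 0.00947) and SLC38A5 (-0.60, adjusted p 0.0342) were lower after PIM-Pd as well; after Pd, SLC6A9 (-0.82), SLC7A1 (-0.51) and SLC38A5 (-0.41) were not called, but were with the experiment as a block (adjusted p 0.0101, 0.0259 and 0.0467, against 0.137, 0.0948 and 0.209). Among the synthetases outside the set, FARSB (phenylalanine), VARS (valine) and the mitochondrial CARS2 were lower after PIM-Pd (-0.76, -0.60 and -0.61, adjusted p 0.00199, 0.00704 and 0.00149). The scaffold protein AIMP2 of the multisynthetase complex was lower too (-0.70, adjusted p 0.00291). TARSL2, a second cytosolic threonine synthetase, was higher after Pd (1.06, adjusted p 0.00253) and PIM-Pd (1.16, adjusted p 0.000862), while TARS was not called.

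The glucocorticoid targets TSC22D3 and FKBP5 could likewise be named only because the study listed them as changed, so their values describe the arrays and do not check the treatments. TSC22D3 (2.49 after Pd, 2.82 after PIM-Pd) and FKBP5 (1.73 and 1.79) were higher in both groups given dexamethasone and were not called after PIM (-0.36 and -0.39, adjusted p 0.809 and 0.795). MYC differed from control by -0.44 after Pd (adjusted p 0.109; 0.0475 with the experiment as a block), and after PIM-Pd it was 1.80-fold lower (-0.85, adjusted p 0.00204). The myeloma factor IRF4 was lower after Pd (-1.10, adjusted p 0.000192) and PIM-Pd (-1.12, adjusted p 0.000118). Of the other plasma cell markers, CD38 was higher after PIM-Pd (0.42, adjusted p 0.0463) and not called after Pd (0.17, adjusted p 0.594). SLAMF7 was not called after PIM-Pd (-0.19, adjusted p 0.596) or Pd (-0.50, adjusted p 0.0839; 0.026 with the experiment as a block). Whether these levels bear on those of the 38 members was not tested.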

How the data were processed

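Total RNA of MM.1S cells from 3 independent experiments was measured on 12 Clariom S arrays. The authors normalised them by RMA in oligo 1.44.0 (R 3.5.0) with a custom gene annotation and deposited log2 values for 17710 genes, which were used as deposited. RMA adjusts the arrays to a common distribution, so a shift shared by most genes would not be seen. Groups came from the treatment labels.

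One linear model with the 4 groups was fitted per gene in limma 3.58.1 (R 4.3.3, lmFit and eBayes, two-sided moderated tests), with Benjamini-Hochberg adjustment over 17710 genes and a call at adjusted p under 0.05. The p-values measure the spread between these 3 experiments, and the number of arrays limits the precision. The method of the study, SAM, was not used here, and its calls may differ from those of limma, also after PIM. The code was tested on simulated data. No 2 of the 12 arrays held identical values (0 of 66 pairs).

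The label of the replicate number marks the arrays of 1 experiment as pairs, and the experiment as a block was the paired alternative. Deviations from group means of same-numbered arrays correlated between -0.101 and 0.303. Other alternatives were median centring, quantile normalisation, leaving out the dimmest 25% of genes (which drops 1 member, VLDLR), an intensity trend, fits of 2 groups, a 2-fold minimum, and leaving out each array in turn. Leaving out PIM 1, PIM 2 and PIM-Pd 1 together was chosen after seeing the data.

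The members and lists were chosen with earlier results of these data known. Values by array are given for ATF4 and for members called with an absolute log2 difference of at least 1 from control, filled up to 6 with the largest called differences; IARS, YARS and EIF2AK4 were added after their values were seen. Genes outside the members are named as at most 5 called per list and comparison; CHMP4C and SLC6A9 were added after their values were seen. Their counts per list, although planned, are not given. Promoter windows are from RefSeq (GRCh38.p14), with coordinates counted from 1.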

Additional observations from a re-analysis of the deposited data

How the results depend on the processing

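After PIM against control, the counts of all genes and of both sets were 0 under every alternative. Of the 31 member differences called, none reversed under any alternative. Median centring changed no member's call, and each scaling moved the median difference over all genes by under 0.05. Apart from the values given in the report, the replicate block changed no call of a member. A 2-fold minimum lowers the counts by construction. Leaving out arrays lowered some counts and raised others, and for this and the other alternatives the cause was not tested. After quantile normalisation AARS and NARS (PIM-Pd against control) and PYCR1 (PIM-Pd against PIM) were no longer called (adjusted p 0.0523, 0.0649 and 0.0523), and with an intensity trend TRIB3 after Pd was not (0.0813). The trend added GARS after Pd (0.0362), ASNS after PIM-Pd (0.0462) and MTHFD2 between PIM-Pd and PIM (0.0464). In fits of 2 groups only, the calls of PYCR1, AARS and NARS after PIM-Pd (0.0753, 0.057 and 0.062) and those of ALDH18A1, PYCR1, IARS and YARS between PIM-Pd and PIM (0.0737 to 0.102) were lost, and those of ALDH18A1, GARS and MARS after Pd (0.0402, 0.0318 and 0.038) were gained.

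After Pd, 960 genes were called, 191 with a 2-fold minimum and 497 to 1049 when 1 array was left out. The 8 ATF4 response members became 4 with a 2-fold minimum and 4 to 8 when 1 array was left out. The 1 synthetase became 0 with a 2-fold minimum, 3 with the replicate block, 2 with an intensity trend, 3 in a fit of the 2 groups only, 3 without PIM 1, PIM 2 and PIM-Pd 1, and 0 to 2 when 1 array was left out.

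After PIM-Pd, 1671 genes were called, 255 with a 2-fold minimum and 1096 to 1771 when 1 array was left out. The 9 ATF4 response members became 3 with a 2-fold minimum and 7 to 11 when 1 array was left out. The 6 synthetases became 0 with a 2-fold minimum and 2 to 6 when 1 array was left out.

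Between PIM-Pd and Pd, 14 genes were called, 1 with a 2-fold minimum, 8 after quantile normalisation, 26 with an intensity trend, 1 in a fit of the 2 groups only, 3 without PIM 1, PIM 2 and PIM-Pd 1, and 2 to 15 when 1 array was left out. The 1 ATF4 response member, SLC7A5, became 0 with a 2-fold minimum, with the replicate block, after quantile normalisation, without the dimmest genes, in a fit of the 2 groups only, without PIM 1, PIM 2 and PIM-Pd 1, and when any 1 array was left out.

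Between PIM-Pd and PIM, 1003 genes were called, 173 with a 2-fold minimum, 455 in a fit of the 2 groups only, 228 without PIM 1, PIM 2 and PIM-Pd 1, and 648 to 953 when 1 array was left out. The 4 ATF4 response members became 0 with a 2-fold minimum, 2 in a fit of the 2 groups only, 2 without PIM 1, PIM 2 and PIM-Pd 1, and 2 to 4 when 1 array was left out. The 2 synthetases became 0 with a 2-fold minimum, 0 in a fit of the 2 groups only, 0 without PIM 1, PIM 2 and PIM-Pd 1, and 0 to 2 when 1 array was left out.

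With 3 arrays per group, small differences have wide intervals, and signal near background limits what can be seen for VLDLR, which was among the dimmest 25% of genes.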
